A study of Homo sapiens with 6 samples.

Results

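The genes of sphingolipid and ceramide metabolism were examined as a set of 43 members out of the 40205 gene symbols with counts. Members were the rows whose symbol was on a list covering ceramide synthesis, sphingomyelin, glycosphingolipids and sphingosine phosphate, and all 43 symbols were found. Of these, 39 had enough reads to be tested, and 4 (DEGS2, GALC, ASAH2 and SGPP2) did not. No member passed the criteria for a difference between CLs-treated and control samples, which 0.0864% of all tested genes did. FA2H, SGPL1 and SPHK1 were at an unadjusted p-value under 0.05 in edgeR (7.69% of tested members, against 5.81% of all tested genes). FA2H passed the filter on low counts only through the CLs-treated group, and without it the share was 5.26%.

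RNA-seq was run on cells labelled HepG2, a human liver cancer cell line, in 3 control samples without treatment (Control-1 to Control-3) and 3 samples given cationic liposomes (CLs) for 24 h, named CLs-1 to CLs-3. Where single samples are listed, their values follow the sample numbers. CLs are positively charged lipid vesicles used to carry nucleic acids and drugs into cells, here made of the cationic lipid DOTAP, cholesterol and a phospholipid carrying polyethylene glycol. The sample labels give the dose as 120 μM, while the methods and discussion of the study also use a mass unit. The study's text calls the samples independent, but neither it nor the labels say that the samples of a group came from separate cultures, so p-values measure the spread between these samples, which may be technical.

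Sphingolipids are membrane lipids built on a long-chain amino alcohol. Ceramide, their central intermediate, is made in the endoplasmic reticulum from serine and palmitoyl-CoA, and is then converted to sphingomyelin or to glycosphingolipids in the Golgi. Lysosomal hydrolases and their activator proteins break these lipids down again. Ceramidases release sphingosine, which sphingosine kinases turn into sphingosine 1-phosphate, a signalling lipid that is degraded irreversibly by a lyase. The liver is a main source of the ceramides and sphingomyelins of plasma lipoproteins.

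The libraries held between 11418527 and 13998946 counts on genes, and the members together took between 28822 and 35560 of them. Liver markers were nearly absent. Of a list of 16 liver and HepG2 markers, 12 were at or under 3 counts in each of the 5 libraries other than CLs-1, where the highest count of any of the 16 was 7. ALB, the gene of albumin, had 0 counts in these 5 libraries and 8 in CLs-1. The label HepG2 is therefore not borne out by these markers. CLs-1 stood apart from the other libraries. The summed level of the liver list was 12.6 CPM (counts scaled to the library total after TMM normalization) in CLs-1 and 0.259 to 1.99 CPM in the others. That of 7 steroidogenic markers was 33.4 CPM in CLs-1 and 0.955 to 2.76 CPM elsewhere, and that of 5 red blood cell markers was 33.2 CPM against 0 to 0.347 CPM. Leukocyte markers summed to 2.22 CPM in CLs-1 and 0.263 to 0.518 CPM elsewhere. The fibroblast list summed to 729.95 to 1098 CPM over the 6 libraries, mostly from COL3A1, but within it COL1A2 had 1044 counts in CLs-1 and 0 to 2 in the others, and THY1 58 against 0 to 1. Endothelial markers summed to 3.69 CPM in Control-3 and 0.0864 to 0.438 CPM in the others, CDH5 having 36 counts in Control-3 and 0 or 1 elsewhere. The 5 markers of simple epithelium summed to 3175 to 4782 CPM in the control samples and 1420 to 1961 CPM in the CLs-treated samples, almost all of it from KRT8 and KRT18. The part of any of these in the values below was not tested. Values without CLs-1 are given beside several, but not all, of the members in which it stood off. In bulk samples such as these, fewer cells of a type and less RNA per cell cannot be told apart.

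Which sphingolipid genes were expressed was asked first. Levels were compared between genes as CPM per 1000 bases of exon, with lengths from GENCODE release 29, which is not the annotation behind the counts, so the order is approximate. PSAP, whose protein is cut into the saposins that assist lysosomal hydrolases, stood first with 323.9 ± 19.1 CPM per kilobase (SD, n = 3) in the control group. It was followed by DEGS1 (80.5 ± 8.52), GLA (60.5 ± 15.1) and CERS2 (58.5 ± 5.99). DEGS1 makes the double bond that turns dihydroceramide into ceramide, GLA is the lysosomal alpha-galactosidase, and CERS2 is the ceramide synthase for very long acyl chains. DEGS1 and GLA, and GLA and CERS2, overlapped among the control samples, whereas PSAP lay above every other member in every sample. SMPD4 (36.9 ± 1.20), HEXA (20.5 ± 0.479) and ORMDL3 (19.8 ± 0.742) came next, the last 2 overlapping. At the lower end were CERS4 (0.734 ± 0.458), SPTLC3 (0.502 ± 0.450) and FA2H (0.0827 ± 0.114 CPM per kilobase).

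**Figure D1:**
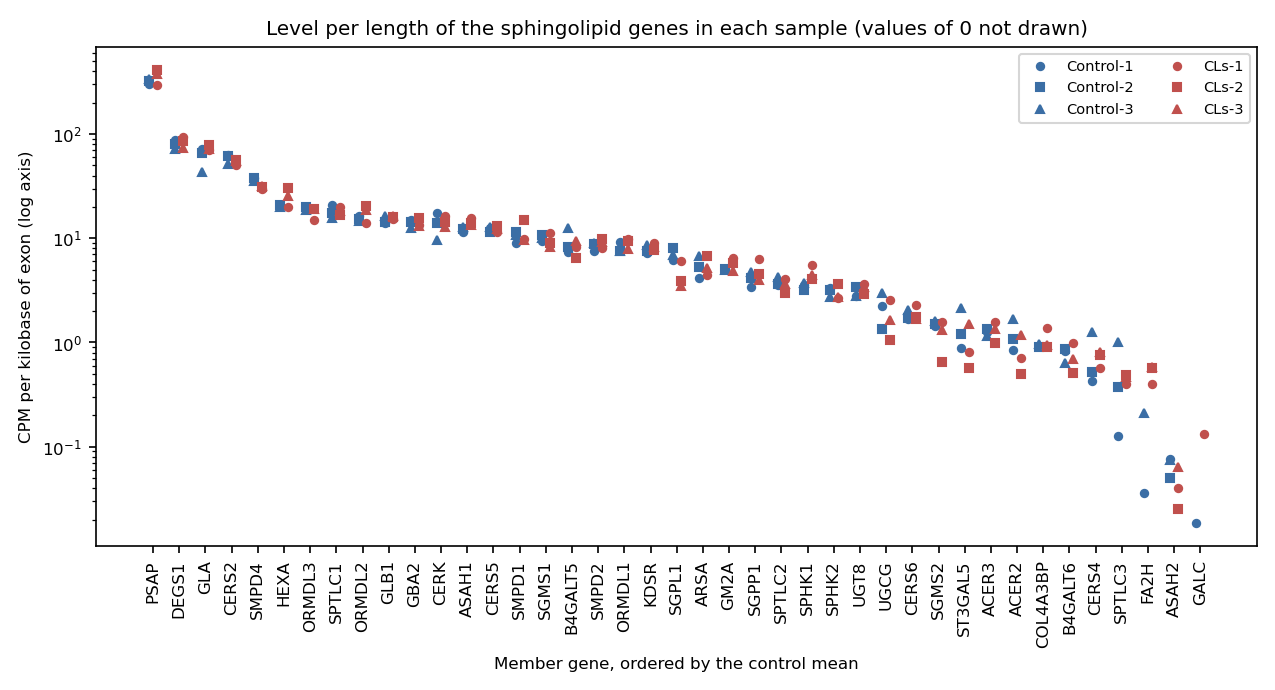
Level of each member in each of the 6 samples, as CPM per kilobase of exon on a log axis, with members ordered by their control mean. Blue points are control samples and red points CLs-treated samples; values of 0 are not drawn, so DEGS2 and SGPP2 are left out. The level runs from a control mean of 323.9 for PSAP down to GALC, which had reads in Control-1 and CLs-1 only.

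DEGS2, which makes phytoceramide, and SGPP2, a phosphatase of sphingosine 1-phosphate, had 0 counts in all 6 libraries. A count of 0 allows up to 3 counts, or 0.208 to 0.263 CPM by library, and this limit covers counting error only. GALC, the lysosomal galactosylceramidase, had 1, 0 and 0 counts in the control samples and 9, 0 and 0 counts in the CLs-treated samples. Its reads thus came almost entirely from CLs-1, the library with the raised marker lists. ASAH2, the neutral ceramidase, had 6, 4 and 6 counts in the control samples and 4, 2 and 5 counts in the CLs-treated samples, and reads could have been split with its close copy ASAH2B.

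Whether CLs changed the expression of sphingolipid genes was addressed with edgeR's quasi-likelihood test on the counts, fitted over the 15047 genes with enough reads. A call needed a fold change of more than 1.5 in either direction together with an adjusted p-value (Benjamini-Hochberg) below 0.05. By this rule 0 of the 39 tested members were called, and 0.0864% of all tested genes were, 0.0133% higher and 0.0731% lower. DESeq2's Wald test also called 0 members, against 0.753% of the genes to which it gave an adjusted p-value, and 3 members (FA2H, SGPL1 and SMPD4) had an unadjusted p-value under 0.05 in it, where 3.10% of all genes it fitted had. At an unadjusted p-value under 0.05 in edgeR there were 3 members (7.69%), against 5.81% of all tested genes. Of these members 2 were higher and 1 lower, where 2.19% of all tested genes were higher and 3.62% lower. FA2H, which passed the filter on low counts only through the CLs-treated group, is among them, and of the other 38 members 2 (5.26%) were under this p-value. The log2 fold change was above 0 in 24 members and below 0 in 15, that is above 0 in 61.5% of members and in 52.1% of all tested genes. The median log2 fold change was 0.06 over the members and 0.01 over all tested genes, and the median size without sign was 0.15 and 0.14. In 5 of the 39 members the samples of the groups did not overlap (12.8%, against 11.5% of all tested genes, 5.34% higher and 6.18% lower). These were FA2H, ASAH1 and SPHK1, which were higher, and SMPD4 and SGPL1, which were lower. Without FA2H they were 4 of 38 (10.5%). Such a separation has an exact two-sided permutation p = 0.10, the smallest that 3 samples against 3 allow. Without CLs-1, 11 of the 39 were apart, 7 higher and 4 lower, where 27.3% of all tested genes were (13.6% higher and 13.7% lower). FA2H, tied to the filter as above, was among the 7.

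A missed threshold does not show that levels were alike, so the 95% interval of each log2 fold change was computed from the same fit. For 24 of the 39 members it lay within a fold of 1.5 in either direction (61.5%, against 49.1% of all tested genes). The interval was wider or shifted in the other 15, for example in SPTLC3 (-0.15, SE 0.53), CERS4 (-0.06, SE 0.44) and ACER2 (-0.60, SE 0.39).

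**Figure D2:**
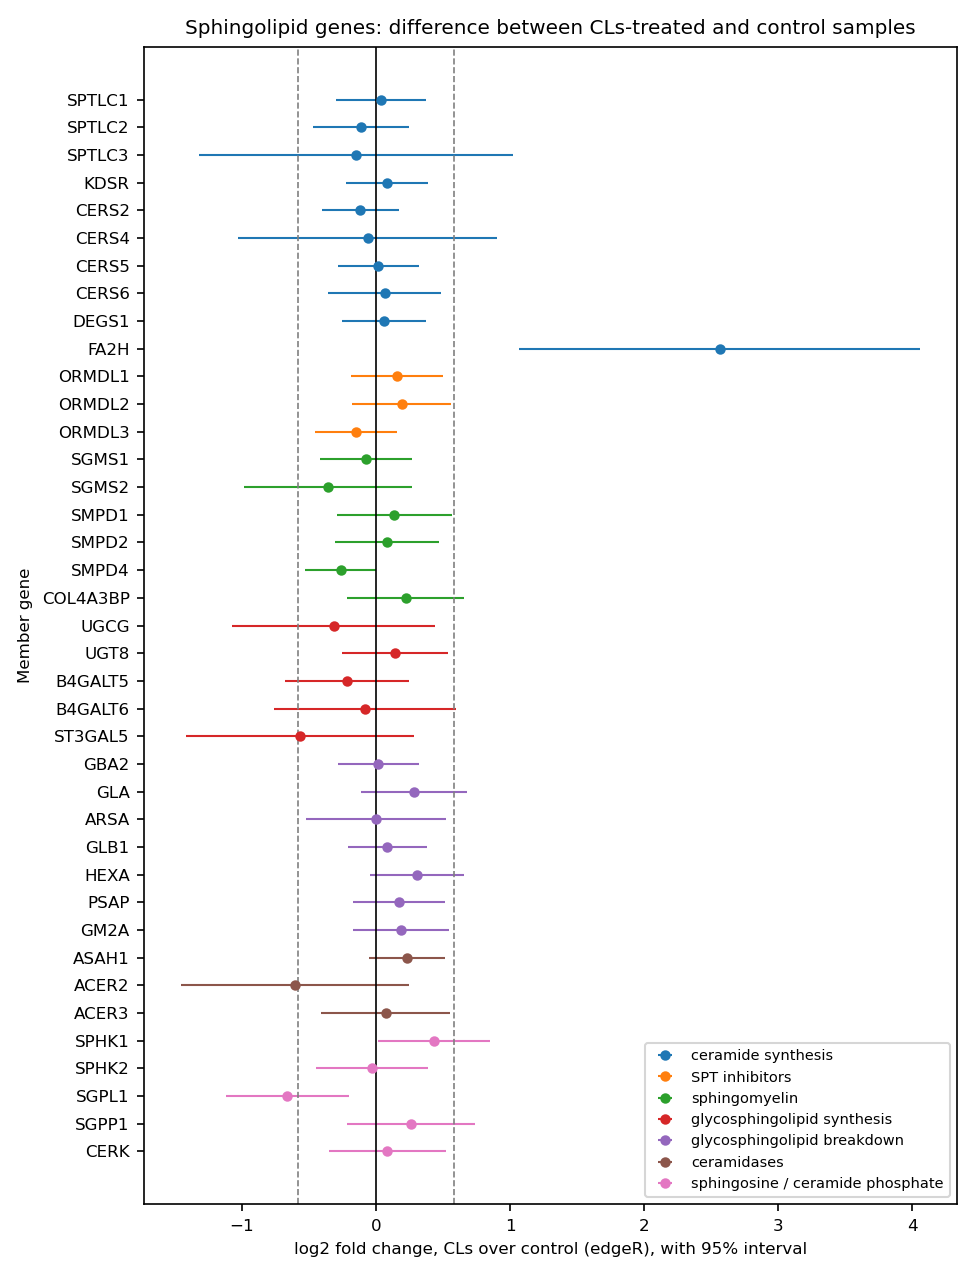
The log2 fold change of CLs-treated over control samples (x axis) for the 39 tested members (y axis), coloured by role. Points are edgeR estimates, bars their 95% intervals, and dashed lines mark a fold of 1.5 either way. FA2H lies at 2.56 with a wide interval, and 24 of the 39 intervals lie within the dashed lines.

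In ceramide synthesis, 10 of 11 members were tested and 0 called. Apart from FA2H, their log2 fold changes lay between -0.15 and 0.08. SPTLC1, the subunit shared by all forms of serine palmitoyltransferase, had 43.2 ± 6.33 CPM (SD, n = 3) in the control group and 44.3 ± 4.10 CPM in the CLs-treated group. Its main catalytic partner SPTLC2 had 31.5 ± 3.12 and 29.2 ± 4.57 CPM. KDSR, which carries out the reduction step that follows, had 42.6 ± 4.19 and 45.1 ± 3.67 CPM. CERS2 was at 210.5, 204.6 and 173.1 CPM in the control samples and at 170.7, 188.8 and 183.3 CPM in the CLs-treated samples. The groups overlapped (log2 fold change -0.12, 95% interval -0.41 to 0.17, and between -0.20 and -0.06 when single samples were left out). DEGS1 had 169.1 ± 17.9 and 176.3 ± 21.7 CPM. For each of these genes on the route from serine to ceramide, the group means thus differed by less than the range of samples within either group. CERS2 shares exon bases with SETDB1 on the opposite strand, and whether the counting used strand is not given in the sources used here.

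FA2H encodes the enzyme that places a hydroxyl group on the fatty acid of ceramide, a modification abundant in myelin and skin. It had 1, 0 and 6 counts in the control samples and 14, 16 and 16 counts in the CLs-treated samples. All CLs-treated samples were above all control samples, and Control-3 was the highest control. Mean levels were 0.200 ± 0.275 CPM without and 1.25 ± 0.244 CPM with CLs (SD, n = 3 each). On the log2 scale the difference was 2.56 (standard error 0.68, 95% interval 1.07 to 4.06, adjusted p = 0.303 in edgeR). Pooled over each group, 46 counts against 7 gave a ratio of 6.10 with an exact 95% Poisson interval of 2.74 to 16.02, which covers counting error only. FA2H passed the filter on low counts only through the CLs-treated group, so its presence among the tested members is tied to its being higher there. With no filter on low counts it met the criteria, at an adjusted p = 0.0436 from edgeR, where 0.672% of all genes did. DESeq2 gave an unadjusted p-value of 0.0053 and no adjusted one. The study, with another test (EBSeq), fold limits of 1.5 and 0.67 and a false discovery rate under 0.05, listed FA2H among its differentially expressed genes.

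The promoter of FA2H is shown because this member had the largest difference among the tested members. The sequence is from RefSeq on GRCh38.p14, a later build than that of the counts, and ends at the base before the annotated start (chr16:74774821-74775070, minus strand). Capitals mark CCAAT and GGGCGG on either strand, which are common promoter elements chosen after the sequence was seen.
FA2H: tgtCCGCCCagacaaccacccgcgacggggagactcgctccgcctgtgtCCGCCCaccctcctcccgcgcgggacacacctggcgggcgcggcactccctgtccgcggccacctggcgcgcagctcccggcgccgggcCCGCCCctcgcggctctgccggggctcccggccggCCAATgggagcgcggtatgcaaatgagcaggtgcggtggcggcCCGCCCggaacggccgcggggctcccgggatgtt
It held 1 CCAAT and 4 GGGCGG, and neither CACGTG nor TCACCCC, letters of the lysosomal CLEAR element and of the sterol regulatory element. In the same 250 bases, CCAAT was present in 10 and GGGCGG in 32 of the 33 members with a promoter in the table, and in 40.2% and 62.1% of 15842 protein-coding genes. CACGTG was present in 1 member (UGT8) and 9.73% of these genes, and TCACCCC in 4 members (GALC, SPHK1, SPHK2 and ST3GAL5) and 6.80%. These matches are a description of letters and not of sites in use.

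The ORMDL proteins hold serine palmitoyltransferase in check when ceramide is plentiful. All 3 of their genes were tested and 0 called. ORMDL3, the most expressed of them per length, was at 72.3, 72.4 and 67.7 CPM in the control samples and 53.9, 69.1 and 68.5 CPM in the CLs-treated samples. CLs-1 was the lowest, CLs-2 and CLs-3 lay among the controls, and the log2 fold change was -0.15 (95% interval -0.46 to 0.16), and -0.04 without CLs-1. ORMDL1 and ORMDL2 had log2 fold changes of 0.16 and 0.19, with adjusted p = 0.998 for each from edgeR. ORMDL2 was at 31.0 CPM in CLs-1, below the control samples at 32.4 to 36.7 CPM, and at 46.0 and 41.4 CPM in CLs-2 and CLs-3, above them. Its log2 fold change was 0.34 without CLs-1 and 0.07 without CLs-2.

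Sphingomyelin is made by SGMS1 in the Golgi and SGMS2 at the plasma membrane, from ceramide that the transfer protein of COL4A3BP (CERT) delivers. Sphingomyelinases split it again, SMPD1 in the lysosome and SMPD2 and SMPD4 at neutral pH. All 6 genes were tested and 0 called. SMPD4 was at 184.4, 185.4 and 174.8 CPM in the control samples and at 145.0, 154.3 and 154.8 CPM in the CLs-treated samples. The groups did not overlap and each was tight. Means were 181.5 ± 5.88 and 151.4 ± 5.49 CPM (SD, n = 3 each), with a log2 difference of -0.26 (SE 0.12, 95% interval -0.53 to 0.00, adjusted p = 0.859 from edgeR), and its exons share bases with MZT2B on the opposite strand. SMPD1 was at 22.1 to 28.2 CPM in the control samples and at 24.0, 36.4 and 23.7 CPM in the CLs-treated samples, so that CLs-2 was above the rest. COL4A3BP was at 20.1 CPM in CLs-1 and between 13.2 and 13.98 CPM in the other 5 libraries. SGMS2 was at 9.47, 9.84 and 10.5 CPM in the control samples and at 10.3, 4.24 and 8.67 CPM in the CLs-treated samples. In each of these 3 genes a single library stood off furthest from the rest, although for SGMS2 CLs-3 also lay below every control sample. Without that library the log2 fold change went from 0.14 to -0.09 for SMPD1, from 0.22 to 0.00 for COL4A3BP and from -0.36 to -0.06 for SGMS2. SGMS1 was at 38.2, 43.4 and 40.4 CPM in the control samples and at 45.8, 36.6 and 33.4 CPM in the CLs-treated samples. Summed over the 6 genes, the level was 280.05, 294.7 and 280.8 CPM in the control samples and 258.5, 261.02 and 249.4 CPM in the CLs-treated samples. SMPD4 was the largest term in each and the only one of the 6 whose groups did not overlap over all samples. The sum thus does not speak for the other genes. Without CLs-1, SGMS1, SGMS2 and SMPD4 were apart and lower, and SMPD2 was apart and higher. Of all tested genes, 13.7% were then apart and lower and 13.6% apart and higher.

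Glycosphingolipid synthesis starts with UGCG, which adds glucose to ceramide, or UGT8, which adds galactose. B4GALT5 and B4GALT6 extend the glucosylceramide to lactosylceramide, and ST3GAL5 adds sialic acid to give the ganglioside GM3. All 5 genes were tested and 0 called, with log2 fold changes between -0.57 for ST3GAL5 and 0.14 for UGT8. B4GALT5 was at 34.8, 38.6 and 59.0 CPM in the control samples and 39.2, 30.7 and 44.1 CPM in the CLs-treated samples, with the third sample the highest in both groups. Its log2 fold change was -0.22 (95% interval -0.68 to 0.25), and without Control-3 it was 0.05. ST3GAL5 was at 5.04, 6.99 and 12.3 CPM in the control samples and 4.64, 3.28 and 8.59 CPM in the CLs-treated samples. Each CLs-treated sample was thus below the control sample of its number. With a block on replicate number its log2 fold change was -0.56 (SE 0.24, unadjusted p = 0.036, adjusted p = 0.568 from edgeR). Without the block the SE was 0.39 and the unadjusted p-value from edgeR 0.17.

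In glycosphingolipid breakdown, 7 of 8 members were tested and 0 were called. All 7 had a log2 fold change above 0 in edgeR, between 0.00 for ARSA and 0.31 for HEXA, as had 52.1% of all tested genes. ARSA and GBA2 (0.02) were close to no change, and in DESeq2 ARSA was just below 0 (-3.4e-05). Their median was 0.17, against 0.01 over all tested genes. PSAP was at 874.8, 940.9 and 983.8 CPM in the control samples and at 858.3, 1197 and 1091 CPM in the CLs-treated samples. CLs-1 was thus the lowest of all 6 samples, and the other two were the highest. For PSAP the log2 fold change was 0.17 (95% interval -0.17 to 0.51, adjusted p = 0.998 from edgeR). HEXA, the alpha subunit of the lysosomal beta-hexosaminidase that degrades ganglioside GM2, likewise had its highest values in CLs-2 and CLs-3, with CLs-1 within the range of the controls. It was at 126.3, 125.3 and 120.8 CPM in the control samples and 121.3, 185.1 and 154.7 CPM in the CLs-treated samples. Its log2 fold change of 0.31 (adjusted p = 0.893) became 0.45 without CLs-1 (adjusted p = 0.322 from edgeR) and 0.15 without CLs-2. HEXA shares exon bases with AC009690.1 on the same strand and with HEXA-AS1 on the other. For PSAP the value was 0.29 without CLs-1 (adjusted p = 0.534 from edgeR) and 0.06 without CLs-2. GLA was at 104.2, 94.6 and 62.6 CPM in the control samples and 100.5, 114.3 and 102.9 CPM in the CLs-treated samples. Its log2 fold change of 0.28 was 0.09 without Control-3. GBA2, the glucosylceramidase outside lysosomes, had 57.7 ± 5.33 and 58.4 ± 5.71 CPM (SD, n = 3 in each group). GLB1, the lysosomal beta-galactosidase, had 40.6 ± 3.38 and 43.1 ± 1.49 CPM, and GM2A, the activator that presents GM2 to the hexosaminidase, had 19.6 ± 0.234 and 22.3 ± 3.14 CPM. Summed over the 8 members of this role, the level was 1234, 1289.5 and 1297 CPM in the control samples and 1213, 1641 and 1477 CPM in the CLs-treated samples, mostly from PSAP and again with CLs-1 the lowest. The sulfatase gene ARSA, at 11.1 ± 2.75 and 11.1 ± 2.38 CPM, overlapped fully.

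Of the ceramidases, 3 of 4 were tested and 0 called. ASAH1, the acid ceramidase of the lysosome, was at 53.1, 56.5 and 58.9 CPM in the control samples and at 71.6, 64.6 and 62.0 CPM in the CLs-treated samples. The groups did not overlap, with CLs-1 the highest and CLs-3 the nearest to the controls. Means were 56.1 ± 2.94 and 66.1 ± 4.95 CPM (SD, n = 3 each), with a log2 difference of 0.23 (SE 0.13, 95% interval -0.05 to 0.52, adjusted p = 0.918 from edgeR), and of 0.17 without CLs-1. The alkaline ceramidases ACER2 and ACER3 had 2.70 ± 0.963 and 9.32 ± 0.722 CPM in the control group and 1.78 ± 0.770 and 9.78 ± 2.27 CPM in the CLs-treated group (SD, n = 3), and both overlapped.

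Among the genes of sphingosine and ceramide phosphates, 5 of 6 were tested and 0 called. SGPL1 and SPHK1, 2 of these 5, were at an unadjusted p-value under 0.05 in edgeR, as were 5.81% of all tested genes. The role as a whole was not tested. SGPL1 encodes the lyase that cleaves sphingosine 1-phosphate for good. It was at 35.4, 46.4 and 39.7 CPM in the control samples and at 34.5, 22.1 and 19.98 CPM in the CLs-treated samples. CLs-1 lay just under the lowest control sample, while CLs-2 and CLs-3 were well below. Means were 40.5 ± 5.51 and 25.6 ± 7.87 CPM (SD, n = 3 each), with a log2 difference of -0.66 (SE 0.21, 95% interval -1.12 to -0.20, adjusted p = 0.478 from edgeR), and without CLs-1 it was -0.94 (adjusted p = 0.156 from edgeR). SPHK1, the kinase that forms sphingosine 1-phosphate, was at 10.6, 9.59 and 11.1 CPM in the control samples and at 16.5, 12.3 and 13.3 CPM in the CLs-treated samples. All 3 were above the controls, CLs-1 the furthest. From 10.4 ± 0.755 to 14.05 ± 2.23 CPM (SD, n = 3 each), the log2 difference was 0.43 (SE 0.19, 95% interval 0.02 to 0.85, adjusted p = 0.832 from edgeR), and 0.30 without CLs-1. SPHK2, the second sphingosine kinase, had 14.5 ± 1.52 and 14.2 ± 2.48 CPM, and its exons share bases with RPL18 and DBP on the opposite strand. CERK, which phosphorylates ceramide, was at 78.2, 62.6 and 43.2 CPM in the control samples and at 73.5, 64.0 and 57.5 CPM in the CLs-treated samples. The groups overlapped (log2 fold change 0.08, 95% interval -0.35 to 0.52), and in both the third sample was the lowest. Without CLs-1 the log2 fold change of CERK was -0.01, and without Control-3 it was -0.11. SGPP1, a phosphatase of sphingosine 1-phosphate, was at 20.8 CPM in CLs-1 and between 11.4 and 15.8 CPM in the other 5 libraries, with a log2 fold change of 0.26, and of 0.04 without CLs-1.

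**Figure D3:**
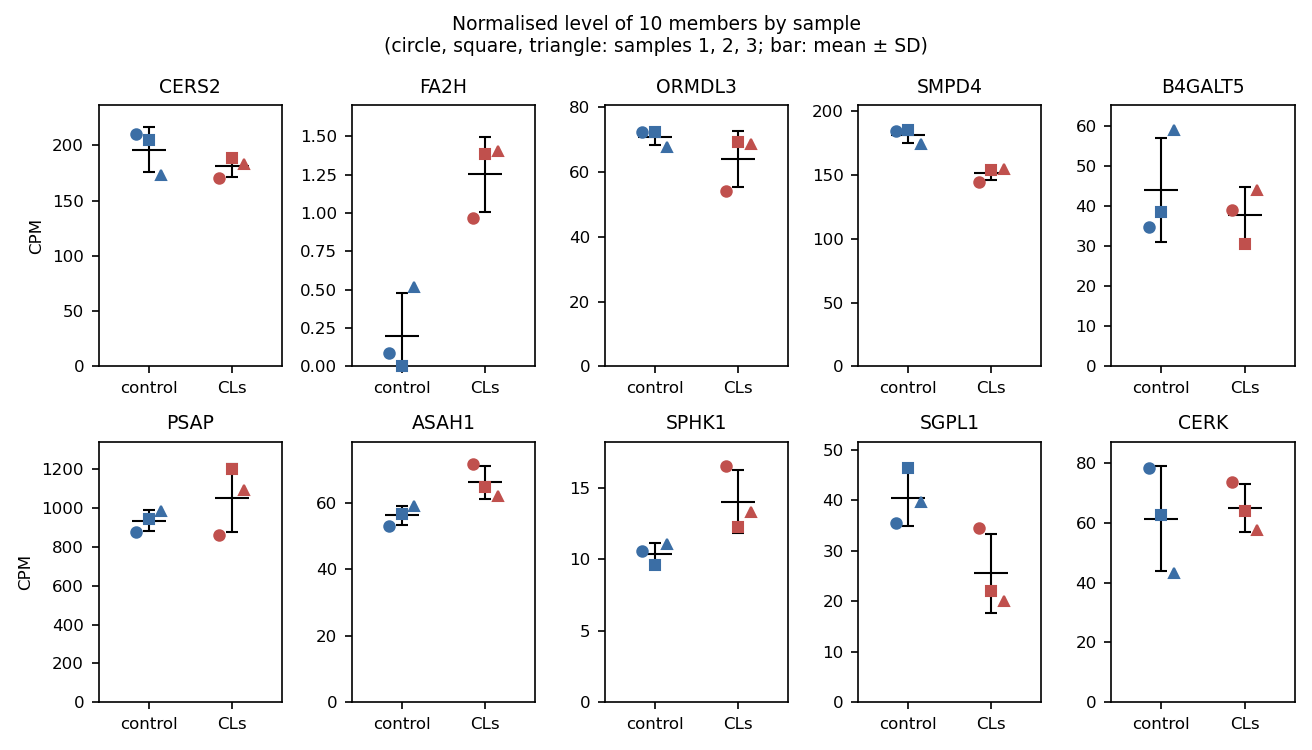
CPM (y axis, from 0) of 10 members in control (blue) and CLs-treated (red) samples. Circles, squares and triangles are samples 1, 2 and 3, and bars give the mean ± SD. FA2H, ASAH1 and SPHK1 lie higher and SMPD4 and SGPL1 lower in every CLs-treated sample, and the other 5 members overlap.

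The promoter of SGPL1, the member with the lowest log2 fold change, is given for comparison with that of FA2H, from the same RefSeq table (GRCh38.p14, chr10:70815698-70815947, plus strand). Capitals again mark CCAAT and GGGCGG.
SGPL1: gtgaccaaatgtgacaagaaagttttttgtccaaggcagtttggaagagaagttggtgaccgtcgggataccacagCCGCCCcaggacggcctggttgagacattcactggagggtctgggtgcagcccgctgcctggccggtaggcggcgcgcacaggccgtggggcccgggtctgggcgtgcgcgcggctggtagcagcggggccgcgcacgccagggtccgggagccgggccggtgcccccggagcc
It held 1 GGGCGG, no CCAAT and neither of the other 2 motifs, and its share of G and C was 68.8%, against 77.6% in FA2H. The first bases after this start were not found in a transcript of SGPL1 in the GENCODE set, while those of FA2H were.

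Several members differed more among control samples than between the groups. The ratio of the highest to the lowest control sample was over 1.5 in 9 members and under 1.25 in 24 of the 38 that had reads in every control sample. SPTLC3, the serine palmitoyltransferase subunit that favours shorter acyl chains, had 9, 27 and 72 counts in the control samples, a 7.90-fold range in CPM. After treatment it had 36, 35 and 33 counts, within the range of the controls. CERS4 had 9, 11 and 27 counts in the control samples, a 2.96-fold range, and 15, 16 and 17 in the CLs-treated samples. UGCG was at 8.94, 5.44 and 11.9 CPM in the control samples and 10.2, 4.24 and 6.57 CPM in the CLs-treated samples. Control-3 was the control sample farthest from the group's median in 23 of the 39 tested members, and CLs-1 was the farthest of the CLs-treated samples in 23. These counts and the control ranges were not computed over all tested genes, so they show nothing particular to the members.

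**Figure D4:**
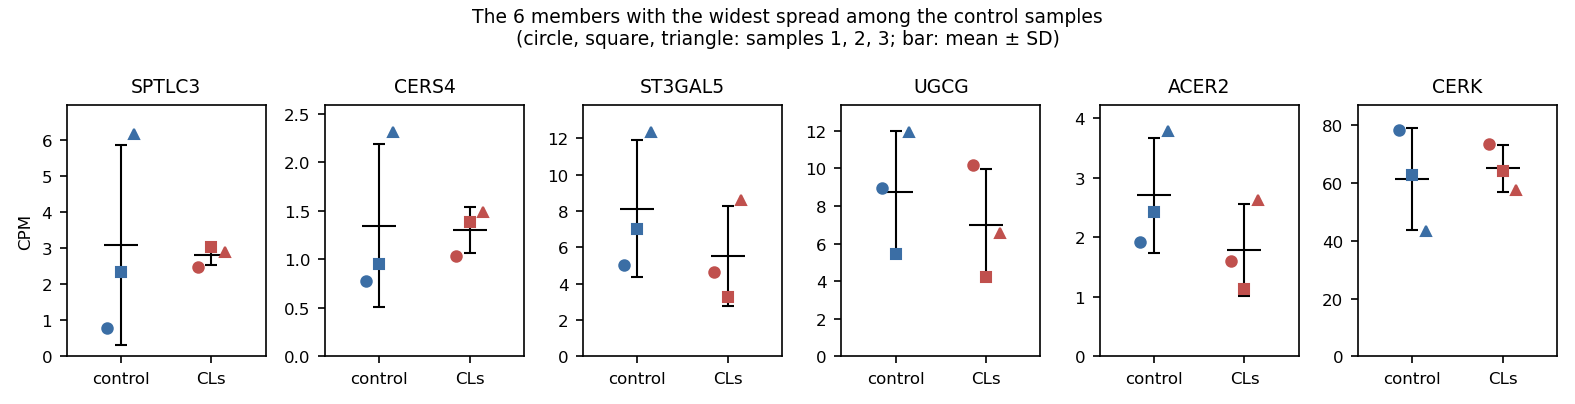
CPM (y axis, from 0) of the 6 members with the widest range among control samples, with symbols as samples 1, 2 and 3 and bars as mean ± SD. SPTLC3 ranges from 0.782 to 6.17 CPM among the controls, around the 2.49 to 3.03 CPM of the CLs-treated samples.

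Shares within a gene family do not depend on how libraries are scaled, and 6 were compared with exact two-sided permutation tests. CERS2 took 79.8 ± 2.95% (SD, n = 3) of the counts of the 4 ceramide synthases in the control group and 78.2 ± 0.908% in the CLs-treated group (exact permutation p = 0.40). SPHK1 made up 40.3%, 39.1% and 46.4% of the sphingosine kinase counts in the control samples and 56.8%, 41.9% and 50.8% in the CLs-treated samples (exact permutation p = 0.20, adjusted over the 6 shares 0.60), a difference of 7.91 percentage points and of 4.44 without CLs-1. ORMDL2 made up 25.4% to 25.7% of ORMDL counts in the control samples, and 25.7%, 30.7% and 29.9% in the CLs-treated samples (exact permutation p = 0.20, adjusted 0.60). SGMS2 had 19.7 ± 1.13% and 16.5 ± 5.40% of the sphingomyelin synthase counts (exact permutation p = 0.40), with a difference of -3.22 percentage points and of -0.17 without CLs-2. B4GALT5 had 93.2 ± 2.43% and 93.1 ± 1.69% of its pair (exact permutation p = 1.0), and SPTLC3 8.25 ± 6.25% and 8.95 ± 2.05% of its pair with SPTLC2 (exact permutation p = 0.90). In all 6 families the groups overlapped.

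**Figure D5:**
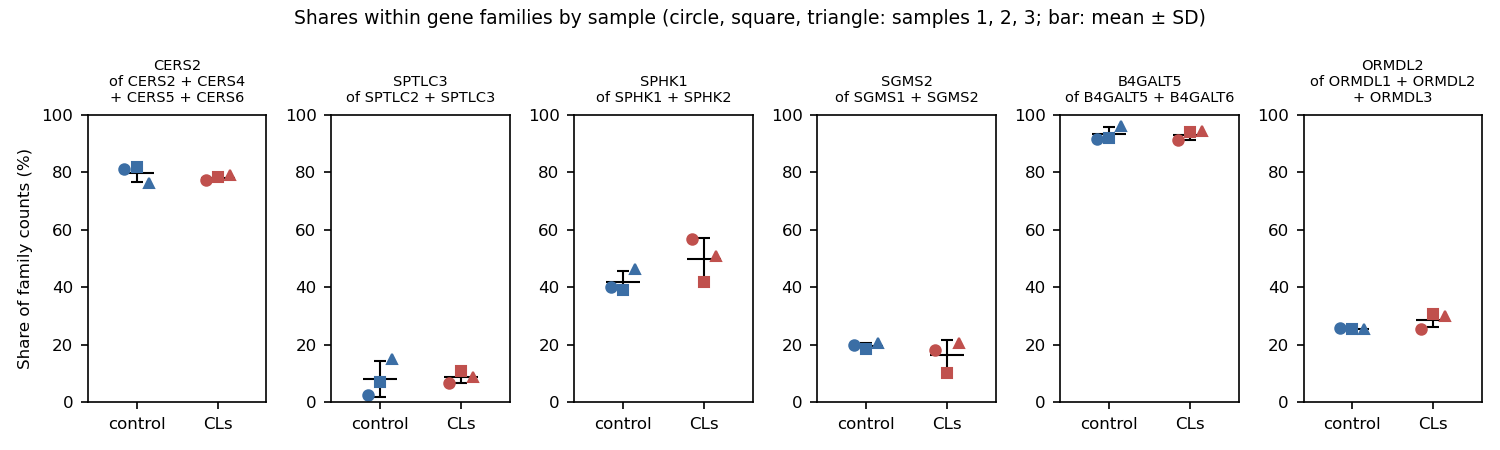
Share of a gene in the summed counts of its family (y axis, %, from 0 to 100) in control (blue) and CLs-treated (red) samples, with bars as mean ± SD. Every panel overlaps between the groups, and the SPHK1 share has means of 41.9% and 49.8%.

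Of 37 further sphingolipid genes, all in the file, 25 were tested and 0 called, and 4 (16%, against 5.81% of all tested genes) had an unadjusted p-value under 0.05 in edgeR. Over the 25, the median log2 fold change was 0.01, with 13 above and 12 below 0. ALDH3A2, the fatty aldehyde dehydrogenase that also removes the aldehyde left by the lyase, was at 168.4, 207.5 and 194.6 CPM in the control samples and 259.1, 269.8 and 305.3 CPM in the CLs-treated samples. The groups did not overlap and had a log2 difference of 0.55 (SE 0.14, adjusted p = 0.260 from edgeR). In DESeq2 its adjusted p-value was 0.0326, with a fold change below the limit of 1.5. SPTSSA, a small subunit of serine palmitoyltransferase, had a log2 fold change of 0.38 (adjusted p = 0.847 from edgeR). PPAP2B, a lipid phosphate phosphatase, had -0.50 (adjusted p = 0.653). The samples of the groups did not overlap in 6 of the 25 (24%, against 11.5% of all tested genes), these 3 included. Of the receptors for sphingosine 1-phosphate, S1PR3 and S1PR5 were at 12.1 to 15.2 and 5.87 to 7.47 CPM in the control samples and at 11.1 to 11.7 and 4.49 to 5.87 CPM in the CLs-treated samples, with S1PR5 apart only beyond the digits given. Their adjusted p-values from edgeR were 0.945 and 0.905.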

How the data were processed

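Whole-number counts of reads per gene symbol were deposited by the authors without normalization. Per the labels and the study's methods, single-end Ion Proton reads were mapped with MapSplice, and the submitters' processing notes name HTSeq 0.6.1 and the builds hg19 and GRCh37. The annotation, the strand setting and the handling of reads with several matches are not given in the sources used here. All 6 columns were used.

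Groups were taken from the sample titles. Counts were compared with edgeR 4.0.16 in R 4.3.3 (filterByExpr, TMM, quasi-likelihood F test on condition), and standard errors and 95% intervals were derived from the F statistic. CPM used TMM-scaled totals. DESeq2 1.42.0, other scalings and filters, a block on replicate number, and fits lacking 1 sample were alternatives. The script was tested on simulated data. The study used EBSeq, which was not run. Members and lists were chosen with earlier results of these data known. Full values are given for members at an unadjusted p under 0.05 or with groups apart, for FA2H, and for the most expressed member of each role by CPM. Exon lengths and overlaps came from GENCODE 29, and promoters from RefSeq (33 of 43 members matched, not SGPP1, B4GALT6, CERS4, CERK, SPTLC3, PSAP, CERS2, ARSA, ASAH1 and HEXA). The values of 1 further sphingolipid gene are not reported here.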

Additional observations from a re-analysis of the deposited data

How the results depend on the processing

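With 3 samples a group, differences of low genes such as FA2H and SPTLC3 are limited by depth and spread. The number of members called was 0 in every alternative except edgeR with no filter on low counts, which called 1, FA2H. Over all genes, 13 were called, 105 with DESeq2, 8 with library totals only, 171 with no filter and 68 with a replicate block. Each sample left out in turn gave 3 to 7. Leaving out single samples moved the log2 fold change of B4GALT5 between -0.36 and 0.050, of CERK between -0.11 and 0.30, of PSAP between 0.06 and 0.29, and of FA2H between 2.01 and 4.54, the last without Control-3 (adjusted p = 0.0960 from edgeR). GALC, not tested otherwise, exceeded FA2H with no filter (2.61 against 2.57) and in DESeq2 (2.77 against 2.63), with 9 of its 10 counts in CLs-1. The difference in share, in percentage points, moved between -2.13 and 4.06 for SPTLC3 between -0.88 and 1.32 for B4GALT5, between 4.44 and 11.9 for SPHK1, between -5.30 and -0.17 for SGMS2 and between -3.25 and -0.59 for CERS2. With at least 10 counts required in every sample, FA2H, CERS4 and SPTLC3 had no value. The cause of these changes was not tested. Among the 10 members with full values and the 6 shares, no other direction changed. The median log2 fold change of the members stayed between 0.02 and 0.09.

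The groups share replicate numbers, and the deviations of same-numbered samples had correlations of 0.0998, 0.122 and 0.333. The main fit used condition only, and the block was an alternative. Every sample correlated best with its own number. With the block, 0 members were called, and FA2H had an adjusted p-value of 0.129 from edgeR. In that fit 4 of the 39 members, ST3GAL5 among them, had an unadjusted p-value under 0.05, as had 7.85% of all tested genes. Lengths of the authors' annotation were not used here. The shares by GENCODE exon length were added after seeing the data and kept their direction.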
